A study of Homo sapiens with 10 samples.

Results

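The baseline state of HBL2 and JEKO, established human cell lines of mantle cell lymphoma, was compared before drug resistance was induced in them. The comparison used 3 HBL2 PT and 2 JEKO PT arrays, which are 5 of the 10 arrays of the series. The letters PT are not explained by the labels and are read here as parental, as the study is known to use them. No treatment is given for these cells. The other arrays, 3 HBL2 BR and 2 JEKO BR, hold cells of the same lines labelled as resistant after exposure to bortezomib, a drug that blocks the proteasome. They entered the same fit, where they add to the estimate of the spread and to the filter on low values, and they give a second reading of the line difference. With the 5 PT arrays alone 2644 genes were called, against 3361 in the fit of all arrays. RNA of all groups came from growing cultures in log phase. Each line descends from a single tumour, and the labels do not say whether replicates were separate cultures, so the p-values rest on the spread among the arrays of a group, and that spread may be only technical.

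All non-control probe sets annotated to exactly 1 gene symbol were members. These were 41091 of 54675 probe sets and stood for 19775 genes. Of these genes, 14529 had a probe set that reached the 50th percentile of an array on 2 or more of the 10 arrays and were tested, and 5246 did not. The brightest such probe set stood for its gene. Every array holds the same set of deposited values, which run from 0 to 4.99 (median 0.73, 75th percentile 1.18), so a value only places a probe set within its array, on a log-like scale of unstated base. Differences are HBL2 minus JEKO in these units and are not fold changes, and values ranked in this way cannot show a shift that most genes share. Values after ± are standard deviations beside a mean and standard errors of the limma fit beside a difference. A gene was called when its adjusted p was under 0.05.

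Mantle cell lymphoma arises from mature B cells. Its hallmark is a translocation that places the cyclin D1 gene, CCND1, under immunoglobulin control. D-type cyclins activate CDK4 and CDK6, which release cells into DNA synthesis, and the CDKN2A product p16 blocks these kinases. The neural transcription factor SOX11 is switched on in most such tumours, and the T cell antigen CD5 is often present on the cells. BCL2 and its relatives set the threshold for apoptosis. The survival of mature B cells also draws on B cell receptor signals, on NF-kB and on antigen presentation to T cells.

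Both lines carried the transcripts that define B cells at high rank. MS4A1 (CD20), CD79A, CD79B and PAX5 lay at percentiles 97.2 to 99.2 of all probe sets in both lines, and CD22 lay at 83.3 in HBL2 and 71.5 in JEKO. CCND1 lay at 98.5 and 99.5 and SOX11 at 82.6 and 94.0, whereas CD5 ranked only at 42.8 in HBL2 and 64.3 in JEKO. Several defining markers of other cell types ranked low, with NKG7 at 6.42 and 14.2, CD8A at 29.8 and 18.5, CD14 at 5.89 and 3.46, and KRT19 at 12.3 and 28.7. Others lay nearer the middle, with LYZ at 60.7 and 28.7, HBB at 58.6 and 52.8 and COL1A1 at 70.8 and 71.0. Arrays of 1 line correlated at r = 0.935 to 0.954 (HBL2) and 0.955 (JEKO) over the member probe sets, and arrays of different lines at 0.901 to 0.915. The control probe sets of beta-actin, read as the 5′ value minus the 3′ value to gauge RNA quality, gave -1.25, -0.86 and -0.58 on HBL2 PT replicates 1 to 3 and -0.70 and -0.82 on the JEKO PT arrays.

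The lines differed widely. Of 14529 genes, 3361 were called (23.1%), 2017 of them higher in HBL2 (13.9%) and 1344 higher in JEKO (9.25%). The median difference over all genes was 0.014 and the median size 0.13. Differences of 0.3 or more were called in 2185 genes, and those of 1 or more in 107, 44 higher in HBL2 and 63 higher in JEKO. The PT arrays of the lines did not overlap in 6848 genes (47.1%), while 13 of the called genes did overlap. The count rests on both JEKO PT arrays: it was 2015 without replicate 1 and 1974 without replicate 2.

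**Figure D1:**
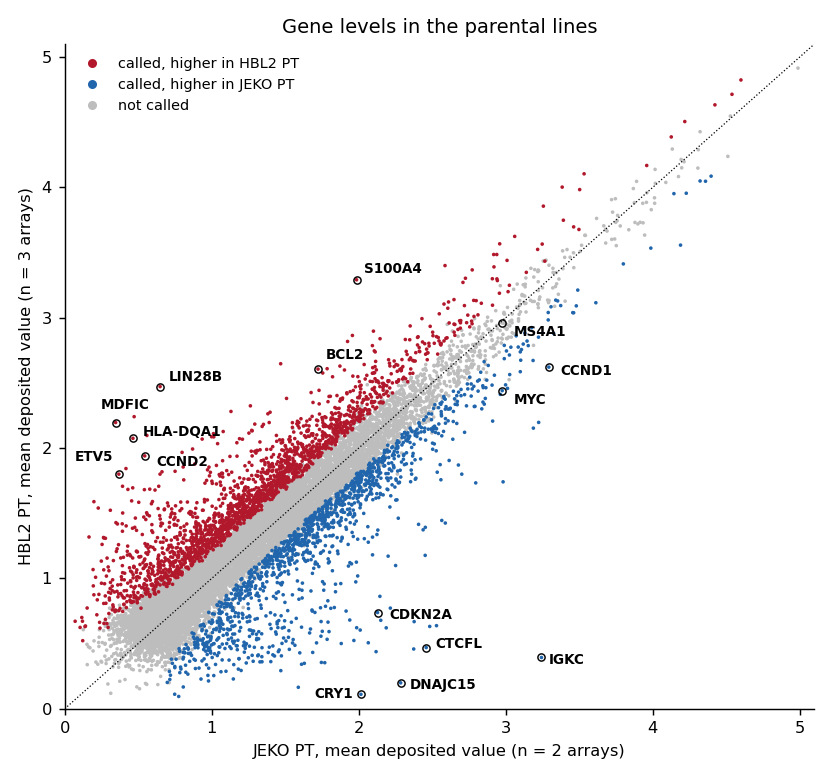
Mean deposited value of each tested gene on the 2 JEKO PT arrays (horizontal) and the 3 HBL2 PT arrays (vertical); the dotted line marks equal values, red points were called higher in HBL2 and blue points higher in JEKO. Most genes lie close to the line (median size of the difference 0.13), and IGKC, CTCFL, DNAJC15 and LIN28B lie among the farthest from it.

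Of the D-type cyclins, CCND1 and CCND2 were called, and for CCND1 the direction depended on the probe set. The brighter of its 2 probe sets read 2.69, 2.58 and 2.59 on the HBL2 PT arrays and 3.33 and 3.26 on the JEKO PT arrays, a difference of -0.67 ± 0.071 (adjusted p = 4.48e-06). The second probe set read 3.187, 2.996 and 2.921 in HBL2 but 0.20 and 0.12 in JEKO, a difference of 2.88 ± 0.085 (adjusted p = 2.12e-11 over all probe sets). So both probe sets were high on every HBL2 PT array, whereas in JEKO the brighter one lay at percentile 99.5 and the other below the 25th percentile value of 0.49. On the BR arrays the brighter probe set differed by -0.44 and the second by 2.64, with JEKO BR at 0.48 and 0.32. Which stretch of the transcript each probe set reads was not analysed here.

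CCND2, the cyclin D2 gene, was 1.86, 1.89 and 2.07 in HBL2 and 0.37 and 0.72 in JEKO, with no overlap (1.40 ± 0.095, adjusted p = 4.35e-08). Of its 4 probe sets 2 were higher in HBL2, and the differences of the 4 ran from -0.06 to 1.40. With the median over probe sets the call of CCND2 was lost (adjusted p = 0.0792). CCND3 differed by 0.21 ± 0.078 and was not called (adjusted p = 0.061), although it was without JEKO PT replicate 1 (0.0381) or HBL2 BR replicate 3 (0.0428).

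By their brightest probe sets the kinase partners went opposite ways. CDK4 was 2.60, 2.58 and 2.58 in HBL2 against 3.10 and 3.09 in JEKO (-0.51 ± 0.058, adjusted p = 8.32e-06). CDK6 was 0.74, 1.09 and 0.98 against 0.48 and 0.17 (0.62 ± 0.12, adjusted p = 0.0014). However, only 5 of its 7 probe sets were higher in HBL2, and the median difference of the 7 was 0.055. With the median over probe sets its call was lost (adjusted p = 0.0507). CDKN2A was 0.54, 0.85 and 0.82 in HBL2 and 2.09 and 2.17 in JEKO (-1.39 ± 0.090, adjusted p = 2.95e-08). The JEKO arrays lay above the 75th percentile value, and the HBL2 arrays were close to the median or below it. CCNE2, a cyclin of the G1/S transition, was higher in HBL2 by 0.64, and CDKN1A, the p21 gene, by 0.54.

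Several transcription factors were higher in JEKO. SOX11 read 1.38, 1.34 and 1.53 in HBL2 and 1.84 and 2.10 in JEKO (-0.55 ± 0.082, adjusted p = 1.45e-04), and all 3 of its probe sets were lower in HBL2. MYC, a driver of growth and ribosome synthesis, read 2.34, 2.47 and 2.52 against 2.956 and 2.996 (-0.54 ± 0.073, adjusted p = 6.43e-05). SOX4, a relative of SOX11, was steady within each line at 1.08, 1.11 and 1.10 against 2.25 and 2.26 (-1.15 ± 0.060, adjusted p = 1.96e-09). In all, 5 of 22 measured drivers and cell cycle gate genes were called higher in HBL2 and 8 higher in JEKO, with a median of -0.13. The 8 include CCND1 by its brighter probe set, and without _x_at and _s_at probe sets, where CCND1 turned, the counts were 5 and 4. Over all genes tested, 13.9% were called higher in HBL2 and 9.25% higher in JEKO. Among 36 measured genes of the cell cycle and DNA replication machinery, 4 were higher in HBL2 (11.1%) and 7 in JEKO (19.4%), with a median of -0.04. Without JEKO PT replicate 1 these became 2 and 3, and without JEKO PT replicate 2 they became 3 and 4.

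**Figure D2:**
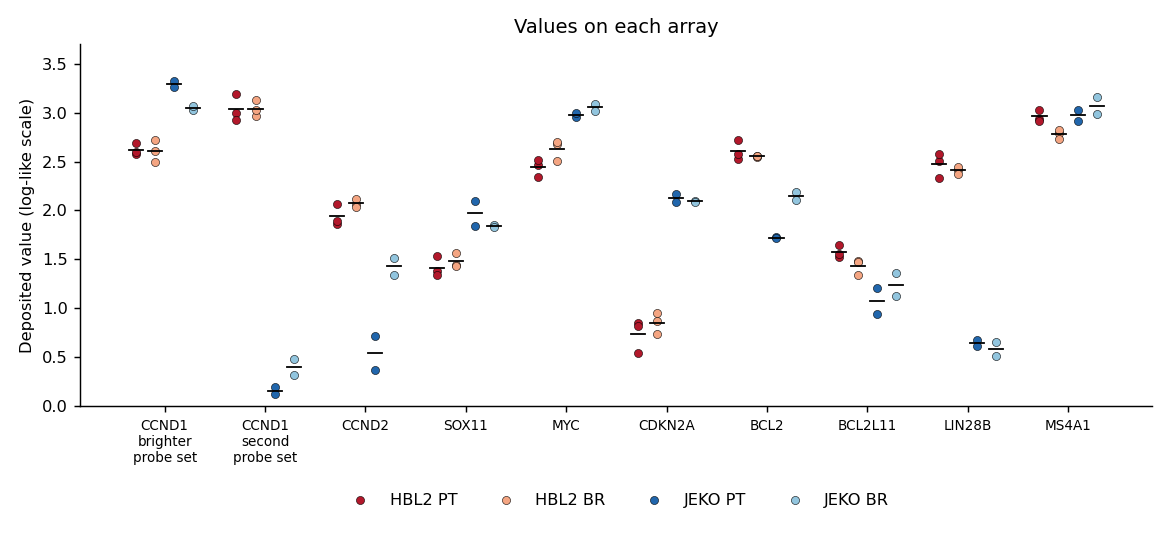
Deposited value of selected genes on each of the 10 arrays; a point is an array, a black bar is the group mean, and colours mark the 4 groups. The second CCND1 probe set lies at 2.92 or more on the HBL2 PT arrays and at 0.20 or less on the JEKO PT arrays, while MS4A1 overlaps between the lines.

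In the BCL2 family, 6 of 16 measured members were called higher in HBL2 and 0 higher in JEKO, with a median of 0.096. BCL2 itself, which blocks apoptosis at the mitochondrion, read 2.52, 2.58 and 2.72 in HBL2 against 1.73 and 1.72 in JEKO (0.88 ± 0.067, adjusted p = 1.35e-07), and all 4 of its probe sets agreed in sign. Several BH3-only genes, which promote cell death, were also among the higher ones. BCL2L11 (BIM) read 1.52, 1.56 and 1.65 against 0.94 and 1.21 (0.50 ± 0.089, adjusted p = 6.81e-04), with 7 of 7 probe sets higher in HBL2. BIK was higher by 0.43 and PMAIP1 (NOXA) by 0.36, and the call of PMAIP1 was lost in 5 alternatives, 3 of which left out 1 array each: replicate 3 of HBL2 PT (adjusted p = 0.0501) and replicate 1 (0.0658) or 2 (0.149) of JEKO PT. MCL1, an anti-apoptotic relative that the proteasome removes quickly, differed by -0.19 and was not called (adjusted p = 0.051), its sign turned to 0.13 without _x_at and _s_at probe sets, and it was called higher in JEKO in 6 alternatives, one of which left out HBL2 PT replicate 3 (adjusted p = 0.00882). Leaving out JEKO PT replicate 1 brought the count of the family to 3, and leaving out the other JEKO PT array brought it to 4.

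The 15 largest differences toward HBL2 included several regulators of gene expression and signalling. MDFIC, an inhibitor of MyoD family proteins, read 2.07, 2.23 and 2.28 in HBL2 against 0.19 and 0.51 in JEKO (1.85 ± 0.095, adjusted p = 1.86e-09). LIN28B, an RNA-binding repressor of let-7 microRNA maturation, read 2.33, 2.51 and 2.58 against 0.68 and 0.62 (1.82 ± 0.077, adjusted p = 1.84e-10). The ETS factor ETV5 read 1.85, 1.71 and 1.84 against 0.39 and 0.35 (1.43 ± 0.074). The 15 genes were chosen among those whose PT arrays did not overlap between the lines, so their separation was set by that choice. RGS13, a germinal centre regulator of G protein signals, differed by 1.43, TOX, a lymphoid HMG-box factor, by 1.39 and the cysteine protease inhibitor gene CSTA by 1.54. S100A4, a calcium-binding protein gene, was already high in JEKO at 1.98 and 1.99 and stood at 3.32, 3.17 and 3.39 in HBL2 (1.30 ± 0.087). RUNX2 differed by 1.21, but only 3 of its 6 probe sets were higher in HBL2, with a median of 0.009. The others of this group were TMEM132D-AS1 (1.77), HLA-DQA1 (1.61), CCND2, MAGEA4 (1.31), the axon guidance receptor gene ROBO1 (1.31), MTX3 (1.25) and the kinase gene MAP3K13 (1.23).

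Toward JEKO the largest difference was in IGKC, the constant region of the immunoglobulin kappa light chain. It read 0.42, 0.43 and 0.32 in HBL2 and 3.24 and 3.24 in JEKO (-2.85 ± 0.089, adjusted p = 1.13e-11), but the median over its 8 probe sets was -0.26 and 1 of them was higher in HBL2. The values come from an _x_at probe set, and without _x_at and _s_at probe sets the call of IGKC was lost (adjusted p = 0.169). DNAJC15, a mitochondrial chaperone gene, read 0.29, 0.17 and 0.14 against 2.34 and 2.23 (-2.09 ± 0.081), with all 3 probe sets lower in HBL2. The core clock repressor gene CRY1 read 0.04, 0.04 and 0.25 against 2.01 and 2.02 (-1.90 ± 0.12). These 3 genes lay below the 25th percentile value of 0.49 on every HBL2 PT array and above the 75th on both JEKO PT arrays.

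BNIP3, a mitophagy receptor gene, was lower in HBL2 by 1.85 units (difference -1.85 ± 0.077), and GLUL, which encodes glutamine synthetase, by 1.71 (difference -1.71 ± 0.073, all 4 probe sets). Other genes of this group were DPEP3 (-1.92), the membrane glycoprotein gene GPM6A (-1.89), LAMP5 (-1.68), the chromatin-binding PSIP1 (-1.57), BEX3 (-1.56), the lysosomal membrane gene LAPTM4B (-1.47), SPP1, which encodes osteopontin (-1.44), PAFAH1B3 (-1.44) and RADX (-1.42). SPP1 rests on 1 of 2 probe sets, since the other differed by 0.11.

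Cancer-testis antigens, germline genes that tumours can switch on, were split between the lines. Of 15 measured, 6 were called higher in HBL2 and 5 higher in JEKO. The 6 on the HBL2 side were all MAGE genes, although MAGEB2 was called higher in JEKO (-0.20), a call lost in 12 alternatives, among them each that left out a JEKO array. MAGEA4 read 1.498, 1.81 and 1.81 against 0.56 and 0.23 (1.31 ± 0.10, adjusted p = 2.07e-07), MAGEA10 differed by 1.08 and MAGEA1 by 0.80. On the JEKO side, CTCFL (BORIS), a testis paralogue of CTCF, read 0.56, 0.26 and 0.59 against 2.50 and 2.42 (-1.99 ± 0.089, adjusted p = 3.73e-10). PRAME differed by -1.41 and SSX1 by -1.06. No single direction describes this list, and its median changed sign between settings (-0.14 to 0.28).

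**Figure D3:**
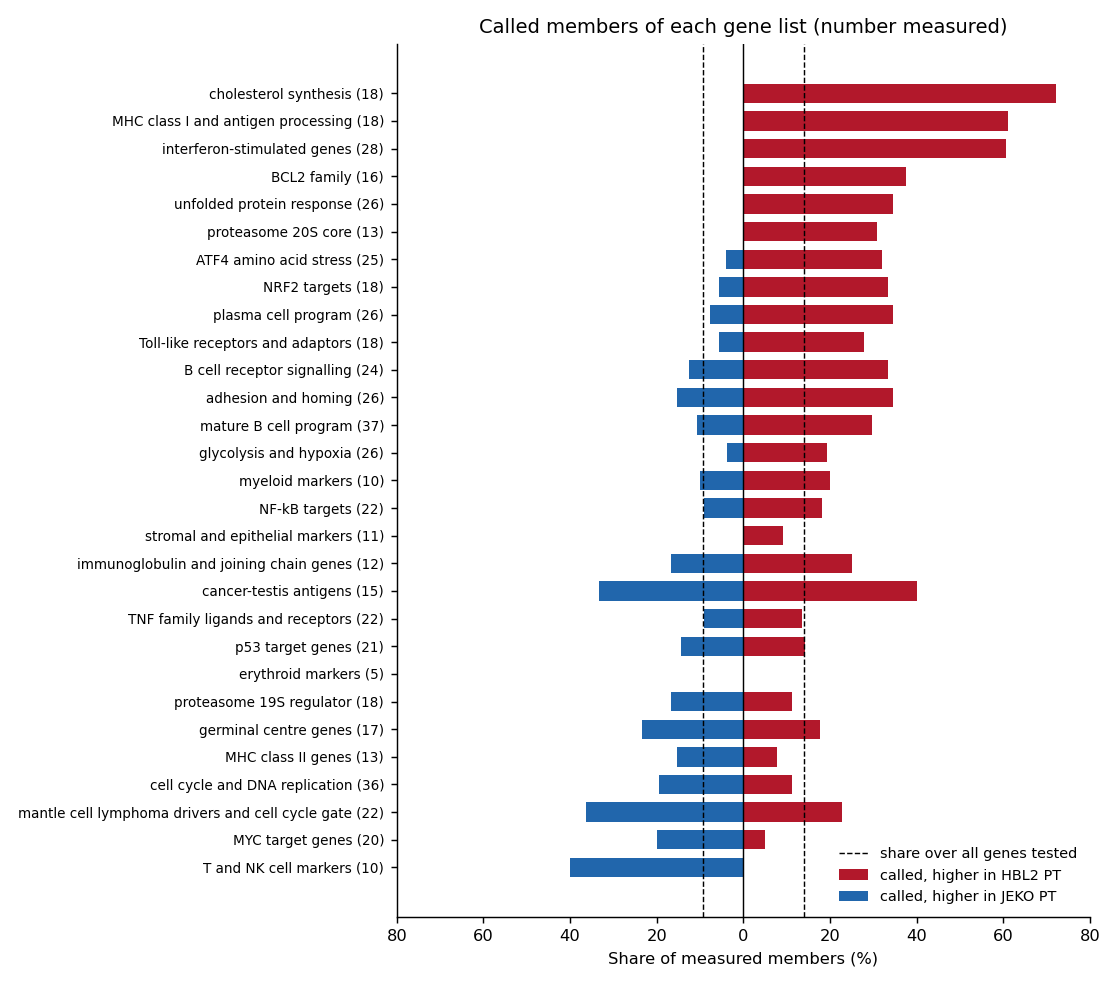
Share of the measured members of each gene list that were called higher in HBL2 PT (red, right) or in JEKO PT (blue, left); the number measured stands after each name and dashed lines mark the shares over all genes tested, 13.9% and 9.25%. Cholesterol synthesis, MHC class I and interferon-stimulated genes reach beyond 60% on the HBL2 side with 0 called on the JEKO side.

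In the plasma cell program, 9 of 26 measured genes were called higher in HBL2 and 2 higher in JEKO (median 0.084), and without HBL2 PT replicate 3 the latter were 5. PRDM1, the gene of the master regulator BLIMP1, read 1.29, 1.26 and 1.27 against 0.83 and 0.97 (0.37 ± 0.073, adjusted p = 0.0015). XBP1, a driver of secretory capacity, differed by 0.33. With the median over probe sets PRDM1 (adjusted p = 0.757) and XBP1 (0.548) were not called and the count toward HBL2 was 4, which was also the count without _x_at and _s_at probe sets. The probe sets of PRDM1 differed by -0.066 to 0.37 and the second of XBP1 by -0.18. The ectoenzyme gene CD38 differed by 0.33 and ITM2C by 0.73. SDC1, the gene of the plasma cell marker CD138, differed by 0.34, and that call was lost in 8 of its alternative settings, among them those without HBL2 PT replicate 2 or JEKO PT replicate 2. IRF4 (-0.17) and JCHAIN (0.080) were not called, although IRF4 was without HBL2 PT replicate 3 (adjusted p = 0.0445). CD27, a receptor of memory B and plasma cells, went the other way at 0.71, 0.82 and 0.83 against 1.74 and 1.81 (-0.99 ± 0.079, adjusted p = 2.35e-07).

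Of 37 measured members of the mature B cell program, 11 were called higher in HBL2 and 4 higher in JEKO (median 0.079). The adaptor gene STAP1 differed by 0.89, the transcription factor gene MEF2C by 0.68 and the Fc receptor-like gene FCRL2 by 0.66, with every probe set of these genes higher in HBL2. Transcription regulator genes of the list were mixed. PAX5 and BACH2, factors that maintain the mature B cell state, were called higher in JEKO, as were ETS1 and POU2AF1. POU2F2 and ID3, like MEF2C, were called higher in HBL2, while EBF1, SPIB, SPI1, BCL6 and CIITA were not called. PAX5 read 2.51, 2.17 and 2.30 against 2.75 and 2.71 (-0.41 ± 0.094, adjusted p = 0.0047), and BACH2 differed by -0.52. With JEKO PT replicate 1 left out PAX5 lost its call (adjusted p = 0.0517). MS4A1 read 2.94, 2.92 and 3.03 against 3.03 and 2.92, which overlap; its difference of -0.012 turned to 0.010 and 0.045 when single PT arrays were left out. When JEKO PT replicate 1 was left out, the counts toward HBL2 and JEKO were 7 and 1, and when replicate 2 was left out they were 6 and 2. The count toward JEKO was 7 without HBL2 PT replicate 1.

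In B cell receptor signalling, 8 of 24 measured genes were higher in HBL2 and 3 higher in JEKO (median 0.17). VAV3, a guanine nucleotide exchange factor, read 1.72, 1.71 and 1.83 against 1.02 and 0.91 (0.79 ± 0.067, adjusted p = 4.54e-07). MALT1, the protease that links the receptor to NF-kB, differed by 0.38. The kinase gene SYK was higher in JEKO, at 2.19, 2.09 and 2.19 against 2.41 and 2.60 (-0.35 ± 0.070, adjusted p = 0.0018), and BTK differed by -0.12 with no call. SYK lost its call without JEKO PT replicate 2 (adjusted p = 0.0611), and CD79B gained one without HBL2 PT replicate 1 (0.048). Without JEKO PT replicate 1 the count toward HBL2 was 4, and without JEKO PT replicate 2 the count toward JEKO was 1.

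Other immunoglobulin genes were less clear. IGLC1, a lambda constant region, read 4.22, 3.98 and 3.81 in HBL2 against 3.37 and 3.40 in JEKO (0.62 ± 0.092), but its difference was -0.033 with the median of its probe sets on each array in place of the brightest and -0.32 without _x_at and _s_at probe sets. IGHA1 was lower in HBL2 on both its probe sets (-1.07 ± 0.095), and IGHM, the heavy chain of IgM, differed by 0.0080 and was not called. Immunoglobulin and HLA genes share sequence with their relatives, so a probe set of one may read several of them.

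Of the interferon-stimulated genes, 17 of 28 measured members were called higher in HBL2 and 0 in JEKO, with a median of 0.31 against 0.014 over all genes. These genes encode antiviral effectors and sensors that interferons induce. SAMD9L read 1.556, 1.582 and 1.598 against 0.59 and 0.81 (0.88 ± 0.075, adjusted p = 4.31e-07). IFIT3, an inhibitor of viral RNA translation, read 1.49, 1.46 and 1.47 against 0.76 and 0.68 (0.75 ± 0.066, adjusted p = 5.23e-07). SAMD9 differed by 0.75, BST2 (tetherin) by 0.52, the RNA sensor gene IFIH1 (MDA5) by 0.48 and ISG15, a ubiquitin-like modifier, by 0.44. MX1 (0.20) and IRF9 (0.11) were not called, although MX1 was without HBL2 PT replicate 3 (adjusted p = 0.0176). Without HBL2 PT replicate 1 the count was 15, and over all settings it ran from 11 to 20.

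The promoters of these genes are known for the interferon-stimulated response element, a binding site of interferon-activated factors built on paired TTTC letters. A pair of TTTC set 2 bases apart, searched on both strands from 250 bases before to 50 bases after the transcript start in RefSeq promoters (GRCh38.p14), was found in 14 of the 21 measured interferon genes with a promoter in the table (66.7%). It was found in 3.65% of 27305 promoters, and in 2.83% of the 11569 promoters of tested genes. Among the 13 called members with a promoter, 8 held it, a share no larger than that over the 21. Stretches of 4 called genes follow to show its arrangement, 5′ to 3′ on the gene's strand, with each match in capitals. Overlapping matches run together, and a match is a description of letters, not of a bound site.
ISG15 (chr1:1013354-1013433, plus strand): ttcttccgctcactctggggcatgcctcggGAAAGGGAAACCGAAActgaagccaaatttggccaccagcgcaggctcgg
IFIT3 (chr10:89327811-89327890, plus strand): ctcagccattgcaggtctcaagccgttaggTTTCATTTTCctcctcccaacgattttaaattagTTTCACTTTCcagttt
BST2 (chr19:17405711-17405790, minus strand): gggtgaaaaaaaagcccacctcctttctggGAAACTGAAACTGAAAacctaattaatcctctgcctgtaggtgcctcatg
SAMD9 (chr7:93118066-93118145, minus strand): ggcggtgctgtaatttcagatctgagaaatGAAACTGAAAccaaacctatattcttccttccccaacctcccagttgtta

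The arrangement differed among these genes. ISG15 and BST2 each hold overlapping copies in the reverse orientation, IFIT3 holds 2 separate copies in the forward orientation, and SAMD9 holds 1. Members with a match but no call included IFI44 (-0.088) and EPSTI1 (-0.041).

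Of 18 measured genes of MHC class I and antigen processing, 11 were called higher in HBL2 and 0 higher in JEKO (median 0.28). TAP2, a subunit of the peptide transporter, read 1.77, 1.77 and 1.84 against 1.05 and 1.05 (0.75 ± 0.072, adjusted p = 1.56e-06), and all 4 probe sets were higher in HBL2. TAP1 differed by 0.30. The immunoproteasome subunit genes PSMB9 and PSMB8 differed by 0.50 and 0.26. Of the genes that make the class I molecule itself, B2M (0.14), HLA-B (0.12), HLA-C (0.17) and HLA-E were not called. The heavy chain genes HLA-F and HLA-G were called higher in HBL2. Without JEKO PT replicate 2 the calls of TAP1 (adjusted p = 0.0514) and PSMB8 (0.0872) were lost, and without HBL2 PT replicate 1 B2M was called (0.0154). The count was 7 without JEKO PT replicate 1 and 7 without replicate 2, and 1 gene was called higher in JEKO without HBL2 PT replicate 3.

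Of 13 measured MHC class II genes, HLA-DQA1 was called higher in HBL2, and HLA-DOA (-0.46) and HLA-DRB4 (-0.50) were higher in JEKO (median -0.18). HLA-DQA1 read 2.08, 2.0 and 2.15 against 0.82 and 0.11, so its JEKO arrays were far apart, and its 3 probe sets differed by between 0.021 and 1.61. HLA-DRA read 2.98, 3.06 and 3.30 against 3.26 and 3.33 and was not called (-0.18, adjusted p = 0.17). The count toward JEKO depended on the settings: it was 7 with array weights, 6 with the replicate block and 0 on percentile ranks. HLA-DRA was called with array weights, with the block and without HBL2 PT replicate 3 (adjusted p = 0.0115), and the call of HLA-DQA1 was lost with the median over probe sets (0.293).

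Cholesterol synthesis had the largest share toward HBL2 among the 29 lists. Of 18 measured genes, 13 were called higher in HBL2 (72.2%) and 0 higher in JEKO, with a median of 0.31. The pathway builds sterols from acetyl-CoA and is driven by SREBP2 when sterols run low. Early steps were included: HMGCS1, the HMG-CoA synthase, read 2.56, 2.54 and 2.63 against 1.995 and 2.191 (0.48 ± 0.072, adjusted p = 1.56e-04), and FDPS, the farnesyl diphosphate synthase, differed by 0.33. Late steps were too: DHCR7, which makes cholesterol from its last precursor, read 2.20, 2.23 and 2.12 against 1.36 and 1.35 (0.83 ± 0.071, adjusted p = 4.58e-07), NSDHL differed by 0.53 and SC5D by 0.44. INSIG1, the gene of a brake on SREBP, differed by 0.38, a call lost without JEKO PT replicate 1. SQLE (0.21), MSMO1 (0.16) and the SREBP2 gene SREBF2 (0.041) were not called, although MSMO1 was without HBL2 PT replicate 1 (adjusted p = 0.0482). The count was 8 without JEKO PT replicate 1, 9 without replicate 2 and 6 without _x_at and _s_at probe sets, and ran from 6 to 14 over all settings. The classical sterol regulatory element TCACCCCAC, searched in the same windows and on both strands, was found in 1 of 16 promoters of the list, that of SREBF2, and in 0.425% of all promoters.

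Proteasome genes encode the complex that bortezomib acts on. Of 13 measured subunits of the 20S core, 4 were called higher in HBL2 and 0 in JEKO (median 0.058), but 0 were called without JEKO PT replicate 2 and 2 without HBL2 PT replicate 1, JEKO PT replicate 1 or any single BR array other than HBL2 BR replicate 3. PSMB5, the subunit that bortezomib binds, read 2.41, 2.37 and 2.38 against 2.25 and 2.22 and was not called (0.15 ± 0.059, adjusted p = 0.072). Of 18 genes of the 19S regulator, 2 (11.1%) were higher in HBL2, the ATPase subunit genes PSMC4 (0.34) and PSMC2 (0.25). The 3 higher in JEKO (16.7%) were assembly chaperones of the regulator rather than subunits, namely PSMD9 (-0.18), PSMD10 (-0.27) and PSMD5. Without JEKO PT replicate 2 the counts were 0 and 1, and that toward JEKO was also 1 without JEKO PT replicate 1 or HBL2 PT replicate 1. PSMD9 also lost its call without HBL2 PT replicate 2 or any single BR array other than HBL2 BR replicate 3. PSMC2 turned to -0.021 without _x_at and _s_at probe sets. PSMD5 read 0.57, 0.56 and 0.75 against 1.58 and 1.64 (-0.98 ± 0.089, adjusted p = 7.85e-07), while its other probe set differed by 0.13. In the unfolded protein response, 9 of 26 were higher in HBL2 and 0 in JEKO (median 0.057), with CALR at 0.49 and ERO1A, the oxidase of disulfide formation, at 0.46. CALR lost its call without JEKO PT replicate 1 (adjusted p = 0.0596). Leaving out 1 HBL2 array (PT replicate 2, PT replicate 3 or BR replicate 3) gave 1 gene called higher in JEKO.

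Of 26 measured adhesion and homing genes, 9 were higher in HBL2 and 4 higher in JEKO (median 0.12). ITGB2, the beta chain of leukocyte integrins, read 1.66, 1.53 and 1.49 against 0.60 and 0.91 (0.80 ± 0.094, adjusted p = 1.34e-05), and its partner ITGAL differed by 0.39. CXCR4, the receptor that homes cells to marrow, read 2.78, 2.78 and 2.80 against 3.10 and 3.21 (-0.37 ± 0.076, adjusted p = 0.0022). Without JEKO PT replicate 2 the counts were 6 and 2, and CXCR4 lost its call (adjusted p = 0.0502).

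Stress and metabolic programs were read next. ATF4 is the factor that answers amino acid shortage. Of 25 measured genes of its response, ATF4 included, 8 were called higher in HBL2 and 1 higher in JEKO (median 0.15). ATF4 itself read 3.03, 2.92 and 2.93 against 2.63 and 2.596 (0.34 ± 0.063, adjusted p = 8.23e-04). The serine synthesis genes PSAT1 (0.39), PHGDH (0.35) and PSPH (0.34) and the asparagine synthetase gene ASNS (0.33) were higher in HBL2, while SHMT2, a mitochondrial enzyme that uses serine, was higher in JEKO (-0.37). PHGDH lost its call in 6 alternatives, 4 of which left out 1 array each: replicate 1 (adjusted p = 0.072) or 2 (0.0615) of HBL2 PT and replicate 1 (0.137) or 2 (0.0873) of JEKO PT. ASNS lost it without JEKO PT replicate 1 (0.126) and PSPH without JEKO PT replicate 2 (0.0771). The list's count toward HBL2 was 4 without JEKO PT replicate 1 and 5 without replicate 2, and the count toward JEKO was 2 without HBL2 PT replicate 3 or HBL2 BR replicate 3.

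Of 18 measured genes of the NRF2 pathway, which serves antioxidant defence, 6 were higher in HBL2 and 1 higher in JEKO (median 0.11). The list holds the NRF2 gene NFE2L2 and the gene of its inhibitor KEAP1, and neither was called. FTL, the ferritin light chain, read 3.56, 3.43 and 3.47 against 2.94 and 2.89 (0.57 ± 0.067, adjusted p = 1.49e-05). Glutathione reductase (GSR) differed by 0.48, NQO1 by 0.47 and HMOX1 by 0.39, whereas GCLC, the catalytic subunit of glutathione synthesis, was higher in JEKO (-0.21). That 1 call toward JEKO was lost without HBL2 PT replicate 2 or JEKO PT replicate 1, and HMOX1 lost its call without the latter (adjusted p = 0.08). Glycolysis and hypoxia genes were called higher in HBL2 in 5 of 26 (19.2%) and higher in JEKO in 1 (3.85%), with a median of 0.12. ALDOC (0.60), GPI (0.52), the glucose transporter gene SLC2A1 (0.38) and LDHB (0.31) were on the HBL2 side, and the 1 gene on the JEKO side was BNIP3.

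Innate signalling genes were called in small numbers. Of 18 measured Toll-like receptors and adaptors, 5 were higher in HBL2, among them LY96 (MD-2, 0.81), its relative LY86 (0.50), TLR4 (0.39) and IRAK1 (0.47), and TLR7 was higher in JEKO (-0.33). LY96, the partner of TLR4, read 1.49, 1.48 and 1.41 against 0.63 and 0.67. With JEKO PT replicate 2 left out the count toward HBL2 was 3 and TLR4 lost its call (adjusted p = 0.176), and TLR7 lost its call without HBL2 PT replicate 2, HBL2 PT replicate 3 or JEKO PT replicate 2. Of 22 NF-kB targets, 4 were higher in HBL2, with the chemokine gene CCL22 at 0.76 and CCL4 at 0.44. RELB (-0.39), a subunit of the alternative pathway, and TNFAIP3 (-0.30), a brake on NF-kB, were the 2 higher in JEKO, and TNFAIP3 lost its call without JEKO PT replicate 2 (adjusted p = 0.171). In the TNF family 3 of 22 were higher in HBL2, namely FAS (0.40), TNFSF10 (TRAIL, 0.43) and TNFRSF10A (0.25), and 2 higher in JEKO, namely CD27 and TNFRSF21 (-0.44). FAS lost its call in 5 alternatives, among them those without HBL2 PT replicate 2 (adjusted p = 0.0546) or JEKO PT replicate 1 (0.296) and those that changed its probe sets (0.172 and 0.594). TNFRSF10A lost it without JEKO PT replicate 2 (0.1).

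The shares over all genes tested were 13.9% toward HBL2 and 9.25% toward JEKO. The TNF family lay close to them at 13.6% and 9.09%, and the NF-kB targets had 18.2% and 9.09%. Shares close to those over all genes, or larger toward JEKO, were also found in other lists. Cell cycle and DNA replication had 11.1% and 19.4%, and the 19S regulator 11.1% and 16.7%. MHC class II had 7.69% and 15.4%, and the drivers and cell cycle gate genes 22.7% and 36.4%. A further 3 such lists follow. Of 17 germinal centre genes, 3 were higher in HBL2 and 4 higher in JEKO, including MME (CD10), which read 0.76, 0.55 and 0.56 against 1.44 and 1.46 (-0.83 ± 0.13, adjusted p = 1.89e-04). Of 20 MYC target genes, 1 was higher in HBL2 (FBL, 0.28) and 4 higher in JEKO (CDK4, ODC1 at -0.32, POLR1B at -0.24 and WDR43 at -0.23). These counts were 2 and 4 without HBL2 PT replicate 1 and 1 and 2 without JEKO PT replicate 2, when POLR1B (adjusted p = 0.118) and WDR43 (0.062) lost their calls. FBL (0.154) and WDR43 (0.211) lost theirs without JEKO PT replicate 1, and WDR43 also without HBL2 PT replicate 2 (0.055). Of 21 p53 target genes, 3 were called each way, with SESN1 at 0.57 and GADD45A at -0.43.

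T and NK cell genes were the list with the largest share toward JEKO. Of 10 measured, 4 were called higher in JEKO and 0 in HBL2 (median -0.21). CD247, the T cell receptor zeta chain, read 0.69, 0.64 and 0.44 against 1.73 and 1.86 (-1.21 ± 0.085, adjusted p = 6.05e-08), with the other probe set at 0.10. TRBC1 differed by -0.56, the kinase gene ZAP70 by -0.51 and LCK by -0.43, which was not called without JEKO PT replicate 1 (adjusted p = 0.0602). Summed over the 10 genes, the values were 6.55 to 7.99 on the HBL2 PT arrays and 9.51 to 10.3 on the JEKO PT arrays. CD3D, CD2, CD8A and NKG7 lay below the array median in both lines and CD3E was not called, and 0 of the 10 had a mean of 0. Of 10 measured myeloid genes, TYROBP (0.82) and FCGR1A (0.50) were higher in HBL2 and CST3 (-0.86) higher in JEKO. The call of FCGR1A was lost in 9 alternatives, among them those without HBL2 PT replicate 1, HBL2 PT replicate 3, JEKO PT replicate 1 or JEKO PT replicate 2, and CD14 ranked low as given above. Whether other cells had a part in these values was not tested.

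Neighbouring genes were read in RefSeq order. Windows of 10 neighbours with at least 7 called in 1 direction were joined. This gave 30 runs, 22 higher in HBL2 and 8 higher in JEKO, which held 449 of 14491 placed genes (3.1%). How many runs would arise without any order along chromosomes was not tested, and the share of called genes within them is set by how they were chosen. The longest lay on chromosome 8 from WWP1 to ZNF706, where 45 of 59 genes were higher in HBL2 and 2 higher in JEKO (median 0.41). UQCRB, a subunit of respiratory complex III, read 3.29, 3.39 and 3.52 there against 2.61 and 2.56 (0.81 ± 0.070, adjusted p = 4.54e-07), and PTDSS1, a phosphatidylserine synthase gene, differed by 0.76. LAPTM4B lies in the same run but was higher in JEKO on all 4 of its probe sets. Over the whole of chromosome 8, 170 of 514 tested genes were higher in HBL2 (33.1%) and 23 higher in JEKO, and MYC, which is on this chromosome, was among the latter.

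Other runs touched genes named above. On chromosome 18, 15 of 21 genes from MALT1 to TMX3 were higher in HBL2 (median 0.36), a run that holds BCL2, while 14 of 19 from KLHL14 to TPGS2 were higher in JEKO (median -0.30). On chromosome 14, 27 of 35 genes from TNFAIP2 to TEDC1 were higher in HBL2 (median 0.53), with PLD4, an endolysosomal exonuclease gene, at 2.86, 2.62 and 2.47 against 1.57 and 1.37 (1.18 ± 0.093). On chromosome 13, 12 of 17 genes from FNDC3A to INTS6-AS1 were higher in JEKO (median -0.33). Chromosome 7 had 13 of 19 genes from IMMP2L to ING3 higher in HBL2, and chromosome 11 had 12 of 17 from ARAP1 to PPME1 higher in HBL2 and 12 of 18 from SMCO4 to MTMR2 higher in JEKO. The MALT1 run had 9 called genes without JEKO PT replicate 1 and 10 without replicate 2, the SMCO4 run had 6 without replicate 1 and 6 without replicate 2, and the ARAP1 run had 8 without replicate 2.

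**Figure D4:**
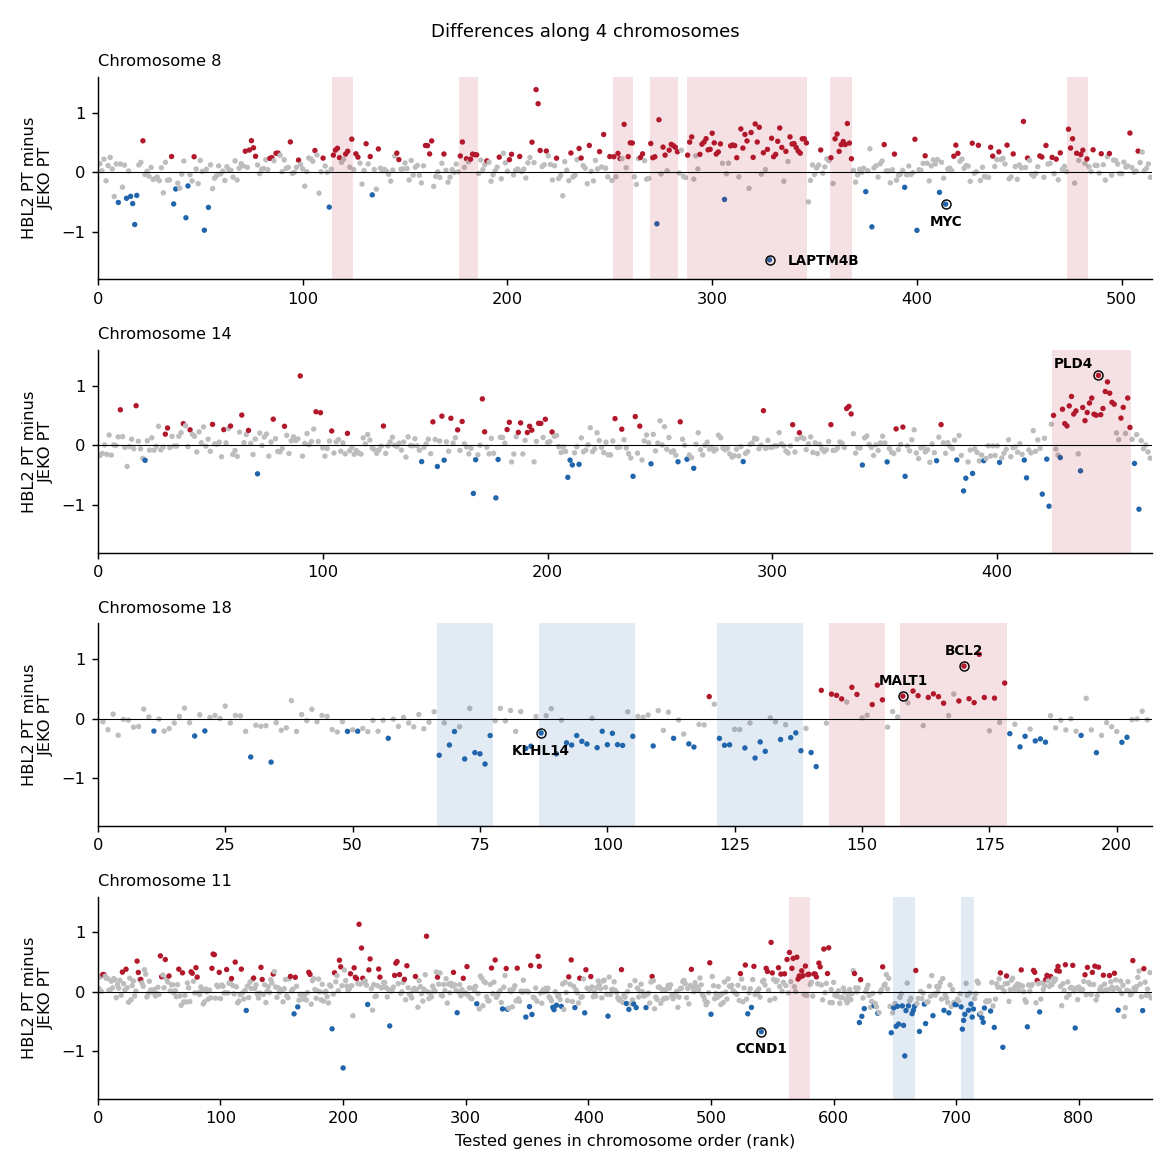
Difference between HBL2 PT and JEKO PT (vertical, deposited units) of each tested gene in its order along chromosomes 8, 14, 18 and 11 (horizontal, rank among tested genes); red and blue points were called higher in HBL2 and in JEKO, grey points were not called, and shaded spans mark the runs. The broad red span on chromosome 8 is the run from WWP1 to ZNF706, in which 45 of 59 genes were higher in HBL2.

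The same line difference was read on the BR arrays, whose group means share no array with the baseline. There 4083 genes were called (28.1%), 2039 higher in HBL2 (14%) and 2044 higher in JEKO (14.1%). Of the 3361 baseline calls, 1745 were called in the same direction on the BR arrays, which is 51.9% of the baseline calls and 42.7% of the BR calls, and 140 in the opposite direction. The sign was the same in 83.0% of the baseline calls and in 64.9% of all genes. Over all genes the differences correlated at Pearson's r = 0.571 and Spearman's coefficient 0.46, a description over genes that share arrays. Without JEKO PT replicate 2 the shared calls numbered 1140.

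Of the baseline calls of a run, 42 of 45 from WWP1 to ZNF706 were called in the same direction on the BR arrays, 21 of 27 from TNFAIP2 to TEDC1, 13 of 15 from MALT1 to TMX3, 12 of 14 from KLHL14 to TPGS2 and 11 of 13 from IMMP2L to ING3. In the SMCO4 run the count was 4 of 12. Some of the largest differences had close values on both sets of arrays: LIN28B differed by 1.82 at baseline and 1.82 on the BR arrays, CRY1 by -1.90 and -1.82, SOX4 by -1.15 and -1.12 and CDKN2A by -1.39 and -1.24.

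Several lists with calls mainly toward HBL2 at baseline were split or turned on the BR arrays. Interferon-stimulated genes had 6 called higher in HBL2 BR and 5 higher in JEKO BR, cholesterol synthesis 3 and 4, and MHC class I 4 and 8. B cell receptor signalling had 1 and 10, adhesion and homing 1 and 10, and the mature B cell program 6 and 19. The 20S core kept its direction with 8 and 0, and the ATF4 list with 14 and 3. For MHC class II, 0 genes were called higher in HBL2 BR and 10 higher in JEKO BR (median -0.82). The change of the line difference between PT and BR arrays was tested gene by gene and called in 1266 genes (8.71%). It was called in 12 of 28 interferon-stimulated genes, 9 of 18 of cholesterol synthesis, 10 of 18 of MHC class I and 11 of 13 of MHC class II. Among the genes called at baseline the change was called in 660, and it made the baseline difference smaller or turned it in 558. These genes were selected for their baseline difference, so that count is a description only.

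**Figure D5:**
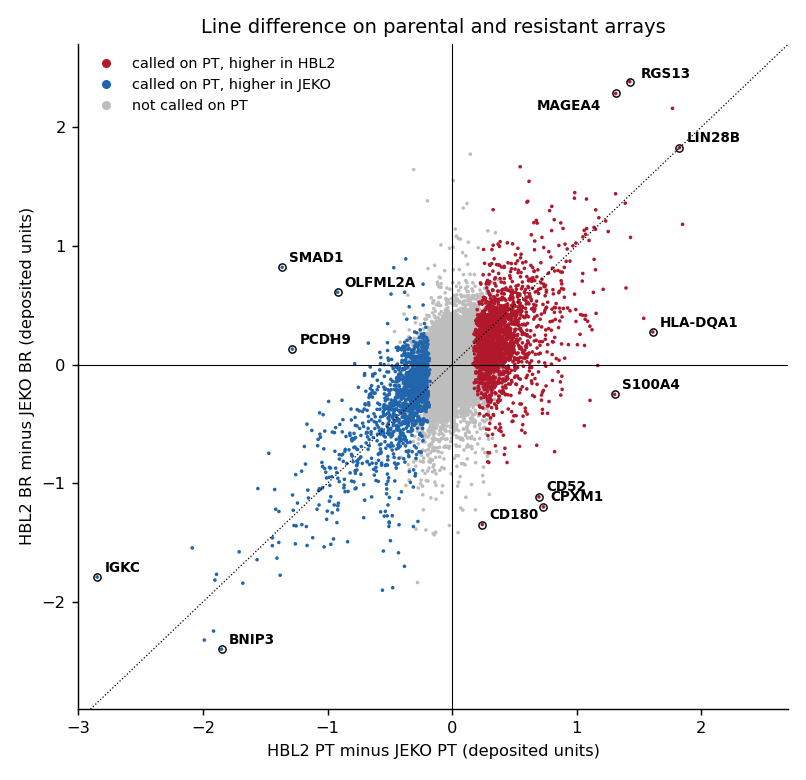
HBL2 minus JEKO on the PT arrays (horizontal) and on the BR arrays (vertical) for each tested gene, in deposited units; the dotted line marks equal differences, and red and blue points were called at baseline. LIN28B lies on the line, SMAD1 and OLFML2A lie at upper left and CD52, CPXM1 and CD180 at lower right, where the sign is opposite on the BR arrays.

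The genes whose line difference changed most were SMAD1, OLFML2A and PCDH9 among those higher in JEKO at baseline, and CPXM1, CD52 and CD180 among those higher in HBL2. SMAD1, a transducer of BMP signals, read 0.66, 0.61 and 0.59 in HBL2 PT against 1.999 and 1.973 in JEKO PT (-1.36 ± 0.068) and differed by 0.82 on the BR arrays (adjusted p of the change = 2.32e-09). CPXM1, a carboxypeptidase-like gene, read 1.89, 1.72 and 1.81 against 1.11 and 1.03 (0.73 ± 0.071) and differed by -1.20 on the BR arrays (adjusted p of the change = 1.35e-08). CD52, a lymphocyte surface glycoprotein gene, read 2.77, 2.54 and 2.49 against 1.75 and 2.06 (0.70 ± 0.12) and differed by -1.11 on the BR arrays. The baseline call of CD52 was lost on percentile ranks and on normal scores. The baseline arrays of SMAD1, CPXM1 and CD52 did not overlap between the lines. PCDH9 went from -1.28 to 0.13, OLFML2A from -0.92 to 0.61 and CD180, which is related to the Toll-like receptors, from 0.24 to -1.35, where the baseline call of CD180 (adjusted p = 0.045) was lost in 13 of its alternative settings, among them those without HBL2 PT replicate 1 or 3 or any single JEKO array.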

How the data were processed

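The values are the deposited scores of 10 arrays in 1 table of the series, with 3 arrays for each HBL2 group and 2 for each JEKO group. The table held 0 columns beyond these. Per the submitters' processing notes the tool was MAS5 (no version), and how every array came to hold the same set of values is not given in the sources used here. Precision is limited by the number of arrays, and no detection calls were used.

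Control probe sets and those without exactly 1 gene symbol did not enter. A single limma fit (version 3.58.1, R 4.3.3) gave 4 group means over all 10 arrays, with variances moderated along an intensity trend (eBayes), 6 residual and 9.89 prior degrees of freedom. The contrasts were HBL2 PT minus JEKO PT, the same on the BR arrays, and the difference of both. All tests were two-sided, the Benjamini-Hochberg adjustment ran over the 14529 genes tested, and every adjusted p in the text is limma's. The fit was tested on simulated data.

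Genes named were the 15 largest differences each way among called genes whose PT arrays did not overlap between the lines, whose mean reached the 50th percentile in 1 of these groups and whose median over probe sets had the same sign. They also came from a set of genes of interest, from up to 4 called members per list each way, from the 3 genes each way with the largest change of the line difference, and from the longest runs of neighbours. Of 166 genes with values, 21 lie outside this rule and were chosen after their values were seen, such as ISG15, BST2, FDPS and ASNS. The members and the 29 gene lists were chosen with earlier results of these data known, so their counts are no independent evidence. Of 38 genes of interest, 2 were not analysed here. RefSeq tables (GRCh38.p14) gave gene order and promoter windows. Alternatives changed the filter, the variance model, the arrays fitted, the probe sets of a gene, the scale or the replicate block, or left out 1 array.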

Additional observations from a re-analysis of the deposited data

Results flagged for a closer look

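The HBL2 minus JEKO difference was not the same on the PT and the BR arrays for 66 of the 166 genes given with values, by the limma test of the change of the line difference (adjusted p up to 0.0494). The values that follow are the PT line difference minus the BR line difference in deposited units, and a positive value means that HBL2 stood higher against JEKO at baseline than on the BR arrays. No reason for these changes was tested. Groups of 3 and 2 arrays are too small for a check of single arrays that stand apart from their group.

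Of the 57 genes called at baseline, 17 were higher in HBL2 at baseline with the opposite sign on the BR arrays. The changes were 1.93 for CPXM1, 1.81 for CD52, 1.59 for CD180, 1.56 for TYROBP, 1.56 for S100A4 and 1.27 for CCL4. They were 0.96 for ITM2C, 0.92 for ITGAL, 0.88 for INSIG1, 0.88 for CDKN1A, 0.69 for ALDOC and 0.51 for CD22. For the interferon and antigen processing genes they were 0.63 for IFIH1, 0.61 for PSMB9, 0.56 for ISG15 and 0.47 for PSMB8, and for BIK the change was 0.46.

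A further 17 were higher in HBL2 with a smaller difference of the same sign on the BR arrays. The changes were 1.34 for HLA-DQA1, 1.15 for CSTA, 0.75 for CCND2, 0.72 for ITGB2, 0.67 for MDFIC, 0.66 for CCL22 and 0.58 for RUNX2. They were 0.48 for BCL2, 0.47 for SESN1, 0.46 for LY86, 0.44 for LY96, 0.43 for VAV3, 0.36 for ETV5 and 0.35 for ERO1A. Among cholesterol synthesis genes they were 0.37 for HMGCS1, 0.36 for SC5D and 0.35 for DHCR7. In 5 genes the difference toward HBL2 was larger on the BR arrays, with changes of -0.97 for MAGEA4, -0.96 for RGS13, -0.93 for CDK6, -0.68 for CD38 and -0.53 for MAGEA1.

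Of the genes called higher in JEKO at baseline, 9 had a larger difference toward JEKO on the BR arrays. The changes were 0.92 for LCK, 0.83 for HLA-DRB4, 0.55 for BNIP3, 0.52 for BACH2, 0.52 for HLA-DOA, 0.47 for ZAP70, 0.43 for SYK, 0.36 for CXCR4 and 0.30 for POLR1B. In 5 genes it was smaller, with changes of -1.06 for IGKC, -0.72 for LAPTM4B, -0.54 for DNAJC15, -0.51 for BEX3 and -0.47 for SSX1. The 4 genes SMAD1 (-2.18), OLFML2A (-1.53), PCDH9 (-1.41) and PSMD10 (-0.434) had the opposite sign on the BR arrays.

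The other 9 genes were not called at baseline. Their changes were 0.70 for JCHAIN, 0.67 for HLA-B, 0.65 for HLA-DRA, 0.64 for MSMO1, 0.63 for HLA-C, 0.54 for B2M, 0.43 for SQLE and 0.39 for MX1, and for IFI44 the change was -0.77.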

How the results depend on the processing

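In 24 alternatives the share of calls higher in HBL2 stayed between 55.5% and 63.5%. Leaving out 1 array gave 1974 to 3610 called genes, 1252 to 2158 higher in HBL2, 722 to 1452 higher in JEKO, and 1140 to 1970 called in the same direction on the BR arrays. The lowest of each was without JEKO PT replicate 2, which leaves that group a single array that is assumed to vary like the others. A size of at least 0.3 left 2185 genes. With every probe set on its own, 27577 features were tested, of which 2776 were higher in HBL2 and 2222 higher in JEKO. Array weights gave 4067 calls, the 5 PT arrays alone 2644, no filter 3069 and a 75th percentile filter 3206. With the replicate block there were 3187. Arrays of the same number deviated from their group means together by r = -0.064 to 0.136. Groups held only 2 or 3 arrays, and pairs of different number were not read beside these. The values therefore cannot decide whether the numbers pair the samples.

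Of the 144 named genes that were called, 94 kept their direction and call in each alternative that gave a value, 49 lost the call in at least 1 and 3 changed sign, so that some did both. With the median over probe sets CCND1 was 1.10, IGLC1 -0.033, B2M -0.043 and SREBF2 -0.19. Without _x_at and _s_at probe sets CCND1 was 2.88, IGLC1 -0.32, MCL1 0.13, B2M -0.22, IFI44 0.041 and PSMC2 -0.021. SREBF2 was -0.022 with array weights. Leaving out 1 array gave -0.068 to 0.045 for MS4A1, -0.077 to 0.085 for IGHM, -0.24 to 0.054 for IFI44 and -0.16 to 0.083 for EPSTI1, and the cause was not tested. Other probe sets, by construction, read other parts of a transcript or other transcripts. Pseudocounts were not applied to values already log-like, and quantile normalization or centring was not run on arrays that share 1 distribution. List medians were not computed for percentile ranks and normal scores, nor single genes for every probe set on its own.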

Other observations

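CCND1 was not alone in having called probe sets of opposite direction. Of 969 genes with at least 2 probe sets called over all probe sets, 31 (3.2%) had calls in both directions. After CCND1, whose probe sets lay 3.55 apart, the widest gaps were in HLA-DQB1 (-0.51 and 0.67), ENSA (-0.36 and 0.69), BICD1 (-0.68 and 0.34) and NUMA1 (-0.60 and 0.40). ENSA encodes a regulator of the phosphatase PP2A, BICD1 a dynein adaptor and NUMA1 a protein of the spindle poles.

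Whole chromosomes differed in the balance of calls. Chromosome 7 had 147 of 683 tested genes higher in HBL2 (21.5%) and 31 higher in JEKO (4.54%), and chromosome 1 had 282 and 71 of 1450. Chromosome 18 had 25 higher in HBL2 and 59 higher in JEKO of 206 (28.6%), chromosome 10 had 32 and 85 of 556, chromosome 15 had 13 and 54 of 468 and chromosome 20 had 19 and 54 of 417. On the BR arrays chromosome 20 had 18 and 85, chromosome 18 had 34 and 58, chromosome 7 had 108 and 128, and chromosome 15 had 75 and 62.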
